A study of Mus musculus with 8 samples.

Results

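The genes described here are 10 genes of MHC class I antigen presentation, followed in mouse muscle satellite cells that overexpressed Hoxa9 and in control cells. They were chosen by name: H2-K1, H2-D1, B2m, Tap1, Tap2, Tapbp, Psmb8, Psmb9, Psmb10 and Nlrc5, which are 10 of the 34836 gene names on the array and have 13 of its 55681 non-control probes. All 10 genes and all 13 probes passed the filter on dim signals, which asked for at least 4 of the 8 arrays well above background. Satellite cells are the stem cells that repair skeletal muscle. The donors were C57BL/6J mice, 3 to 4 months old, and the tissue was hindlimb muscle. The cells were sorted, cultured overnight and transduced with a lentivirus that carried eGFP alone (4 samples) or Hoxa9 with eGFP (4 samples). The eGFP-positive cells were sorted 5 days later and their RNA was hybridised to 8 one-colour Agilent arrays. Both groups were thus cultured and both received a lentivirus, and no untransduced or freshly sorted cells are among the samples used here.

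MHC class I molecules show peptides from inside the cell to cytotoxic T cells. The immunoproteasome, in which the induced subunits encoded by Psmb8, Psmb9 and Psmb10 take the place of the constitutive Psmb5, Psmb6 and Psmb7 products, cuts proteins into peptides. The TAP transporter, made of the Tap1 and Tap2 products, carries the peptides into the endoplasmic reticulum. There tapasin, from Tapbp, tethers empty class I molecules to the transporter while a heavy chain (H2-K or H2-D) and its light chain beta-2-microglobulin (B2m) take up a peptide. Nlrc5 encodes a transactivator of class I genes, and interferons are the best known inducers of the whole set.

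Levels are given as log2 signal relative to the 75th percentile of the same array, so a negative level is a signal dimmer than that percentile. Differences are log2 values of Hoxa9-eGFP minus eGFP, with n = 4 per group, and were called at an adjusted p under 0.05 (limma, adjusted over all 27033 genes tested). This main test did not pair samples by their number. Levels of different probes are not comparable with each other. Separate animals are not stated for the samples of a group, so the tests rest on the spread between samples, which may be technical. The arrays had 69.6% to 77.5% of non-control spots well above background and lay on 3 slides, each with both groups. Slide 1 held eGFP replicates 1 and 2 and Hoxa9-eGFP replicate 4. On slide 2 were eGFP replicate 3 and Hoxa9-eGFP replicates 1 and 2, and on slide 3 eGFP replicate 4 and Hoxa9-eGFP replicate 3. No same-numbered samples shared a slide, so differences within pairs also hold differences between slides. The brighter Hoxa9 probe rose from -0.47 ± 0.45 (SD, n = 4) to 5.51 ± 0.21, a log2 difference of 5.98 (SE 0.24, adjusted p = 1.97e-05, limma). The other Hoxa9 probe was called lower, with a difference of -1.74 (SE 0.15, adjusted p = 0.00027, limma). The satellite cell list held 12 markers, of which 11 were tested, and each tested one was well above background on all 8 arrays. In the main test 5 of these fell, among them Pax7 by 1.30. Calcr, the marker left untested, reached that signal on 0 arrays of either group.

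Of the 10 class I genes, 4 rose (H2-K1, Tap2, Tapbp and Psmb8), none fell, and 6 did not pass the test. By comparison, 7.83% of all genes tested were called higher and 7.43% lower. The 10 genes and the gene lists below were chosen with earlier results of these data known, so such comparisons are a description only. In an alternative fit that paired same-numbered samples, 8.51% of all genes were called higher, and H2-D1 and Tap1 also passed. The median difference of the 10 genes was 0.98, against -0.07 over all genes, whose middle 50% ran from -0.43 to 0.30. All 4 Hoxa9-eGFP arrays lay above all 4 eGFP arrays for 5 of the 10 genes, the 4 called ones and H2-D1, and for 11.1% of all genes. They lay below for none of the 10 and for 12.5% of all genes. Among the 13 probes 5 were called higher and 0 lower, against 6.82% and 6.65% of the 40771 probes tested. In RNA from whole samples, more cells that express a gene and more RNA per cell cannot be told apart.

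**Figure D1:**
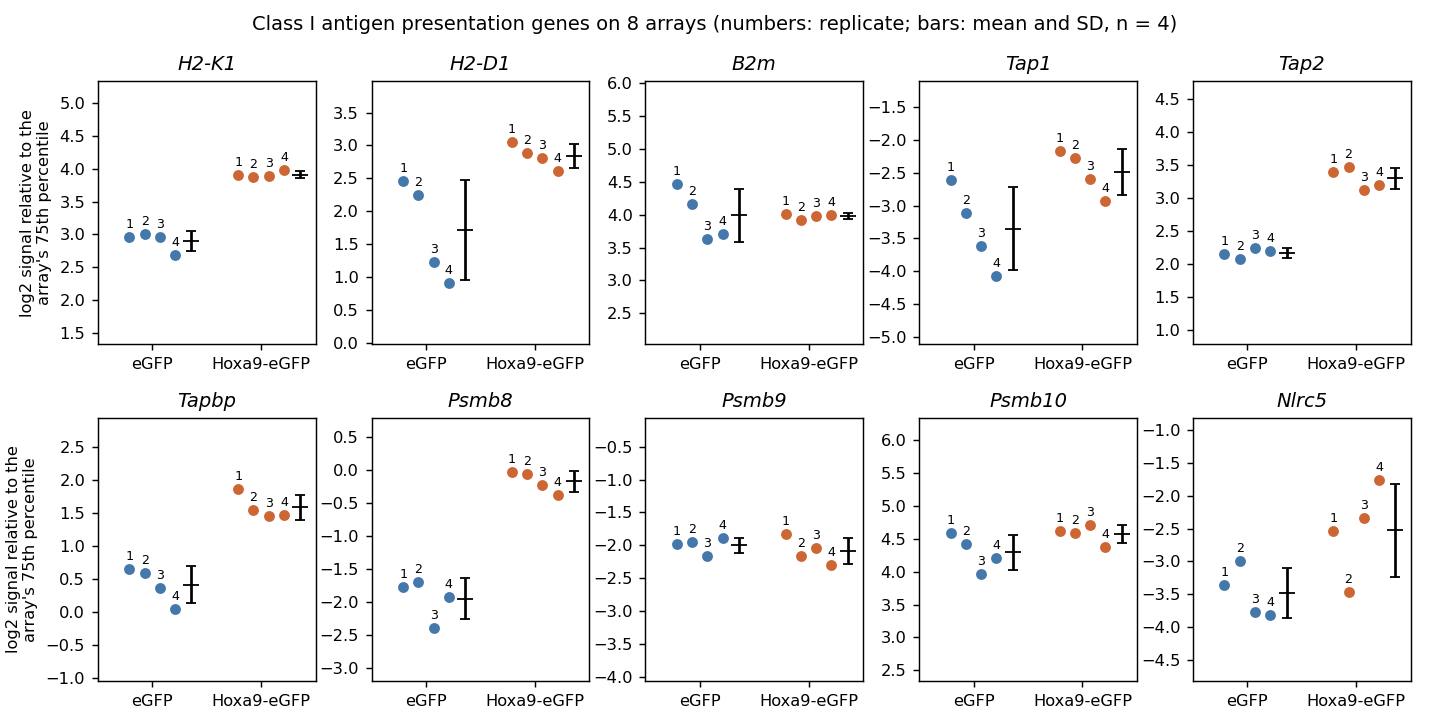
Log2 signal relative to the array's 75th percentile (y axis) for the 10 class I genes, with the eGFP samples in blue and the Hoxa9-eGFP samples in orange, each point labelled with its replicate number and each bar showing the mean and SD. Every panel spans the same range of log2 units. The groups are separate for H2-K1, H2-D1, Tap2, Tapbp and Psmb8 and overlap for the other genes.

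Of the genes for the class I molecule itself, H2-K1 rose, while H2-D1 and B2m did not pass the test. H2-K1, which encodes the K heavy chain, read 2.96, 3.00, 2.96 and 2.68 in the eGFP samples (replicates 1 to 4, the order used throughout) and 3.90, 3.87, 3.89 and 3.98 in the Hoxa9-eGFP samples. The groups did not overlap, and the Hoxa9-eGFP values lay close together. H2-K1 rose 2.01-fold (log2 difference 1.01, SE 0.13, adjusted p = 0.0015, limma). Its other probe rose by 0.97 (SE 0.18, adjusted p = 0.00867 over all probes). Within the 3 slides the difference of H2-K1 was 0.92 to 1.21.

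H2-D1, which encodes the D heavy chain, read 2.46, 2.24, 1.24 and 0.91 in the eGFP samples and 3.05, 2.88, 2.82 and 2.61 in the Hoxa9-eGFP samples. The groups did not overlap, but eGFP replicates 1 and 2, both on slide 1, lay well above eGFP replicates 3 and 4. The difference of 1.13 (SE 0.35, 95% interval 0.33 to 1.93) therefore came with a wide error and did not pass the test (adjusted p = 0.0668, limma). With the replicate block, which compares samples of the same number and calls 8.51% of all genes higher and 7.89% lower, it did pass (adjusted p = 0.0436). All 4 same-numbered pairs were higher, by 0.59, 0.64, 1.58 and 1.71, and the within-slide differences were 0.26, 1.73 and 1.91. Of the fits with 1 array left out, only that without eGFP replicate 1 passed the test (1.38, adjusted p = 0.0323, limma). Without eGFP replicate 4 the difference was 0.86 (adjusted p = 0.123, limma).

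B2m, the light chain that every classical class I molecule needs, read 4.47, 4.16, 3.62 and 3.70 in the eGFP samples and 4.01, 3.92, 3.98 and 4.00 in the Hoxa9-eGFP samples. The Hoxa9-eGFP values lay close together inside the eGFP range. The difference was -0.01 (SE 0.20, 95% interval -0.48 to 0.46, adjusted p = 0.981, limma), an interval that leaves room for changes of up to 1.37-fold upward. In the eGFP samples B2m had the same order as H2-D1 for replicates 1 and 2, which were the highest for both genes. Within the slides its difference was -0.32, 0.35 and 0.28.

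The heavy chain probes were compared with the other probes of the array, not with transcripts, so how specific each is was not tested. The probe that represents H2-K1 (chr17:34133055-34133114, mm9, minus strand) shares at most 14 bases in a row with a probe of another gene name, and that of H2-D1 (chr17:35403886-35403945, mm9, plus strand) also at most 14. The second H2-K1 probe lies at chr17:34133984-34134043 (mm9, minus strand). Its capitals mark a run of 29 bases that it shares with the H2-T23 probe, and 6 probes of other gene names share 14 or more bases with it. Signals of class I heavy chain genes with near-identical copies are for this reason uncertain as to their gene.
Second H2-K1 probe: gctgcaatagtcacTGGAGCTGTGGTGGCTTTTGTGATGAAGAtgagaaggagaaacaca

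Of the transporter genes, Tap2 rose and Tap1 did not pass the test. Tap2 read 2.14, 2.08, 2.24 and 2.20 in the eGFP samples and 3.39, 3.48, 3.13 and 3.20 in the Hoxa9-eGFP samples. The groups were separate by more than the range of either. Tap2 rose 2.19-fold (log2 difference 1.13, SE 0.14, adjusted p = 0.00102, limma), with within-slide differences of 1.09, 1.19 and 0.93.

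Tap1 read -2.61, -3.12, -3.62 and -4.07 in the eGFP samples and -2.16, -2.27, -2.60 and -2.92 in the Hoxa9-eGFP samples. The groups overlapped, since eGFP replicate 1 lay above Hoxa9-eGFP replicate 4. The difference was 0.86 (SE 0.33, 95% interval 0.11 to 1.61, adjusted p = 0.125, limma). Each Hoxa9-eGFP sample was higher than the eGFP sample of its number, by 0.44, 0.84, 1.02 and 1.14, and with the replicate block the adjusted p was 0.0275. Within the slides the difference was -0.06, 1.40 and 1.47, and with normexp it was 0.45. Of the fits with 1 array left out, only that without eGFP replicate 1 passed the test (1.11, adjusted p = 0.0470, limma). Without eGFP replicate 4 the difference was 0.62 (adjusted p = 0.236, limma). Whether Tap1 moved less than Tap2 was tested through their ratio within each array, whose group difference of 0.27 was not significant (exact two-sided permutation test, p = 0.486).

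Tapbp, which encodes tapasin, read 0.65, 0.60, 0.36 and 0.04 in the eGFP samples and 1.86, 1.56, 1.46 and 1.48 in the Hoxa9-eGFP samples. The groups did not overlap. Tapbp rose 2.26-fold (log2 difference 1.18, SE 0.18, adjusted p = 0.00346, limma), with within-slide differences of 0.85, 1.35 and 1.42.

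**Figure D2:**
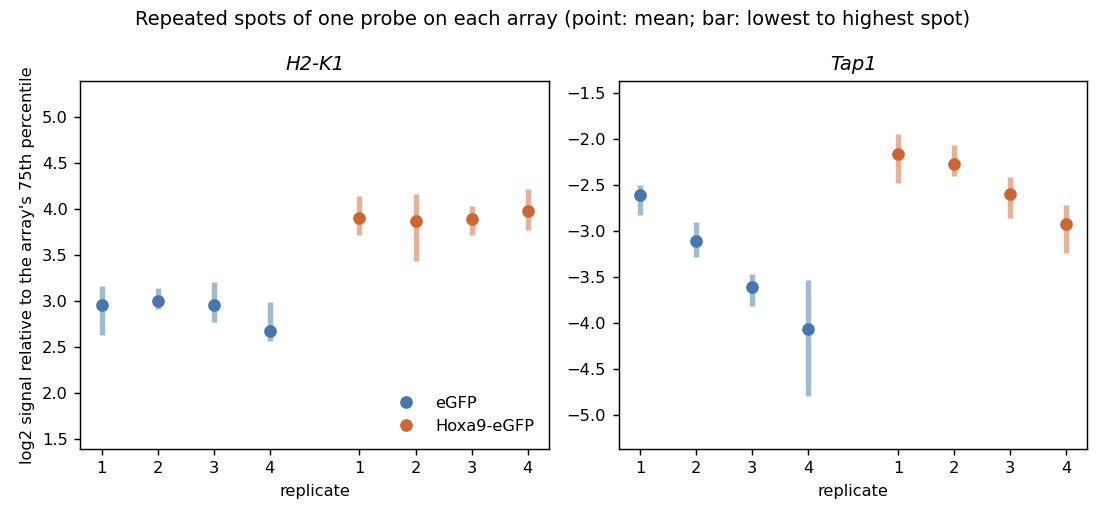
Log2 signal relative to the array's 75th percentile (y axis) of the repeated spots of 1 probe of H2-K1 and 1 of Tap1 on each array (x axis, replicate number), with points for the mean and bars from the lowest to the highest spot. The eGFP arrays spread further apart for Tap1 than for H2-K1.

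The arrays carry the H2-K1 and Tap1 probes in up to 10 spots, and each array's value is the mean over them. The standard error of that mean was 0.04 to 0.07 for H2-K1 and 0.04 to 0.11 for Tap1 on the log2 scale. The SD between arrays, which also holds the differences between samples, was 0.15 (eGFP) and 0.05 (Hoxa9-eGFP) for H2-K1. For Tap1 it was 0.63 and 0.34. B2m had 2 spots, with a standard error of their mean of 0.06 to 0.20, and its SD between arrays was 0.40 and 0.04.

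Of the 3 induced proteasome subunits, Psmb8 rose and Psmb9 and Psmb10 did not pass the test. Psmb8, the chymotrypsin-like subunit that takes the place of Psmb5, read -1.78, -1.70, -2.40 and -1.93 in the eGFP samples and -0.03, -0.06, -0.22 and -0.38 in the Hoxa9-eGFP samples. The groups lay far apart. Psmb8 rose 3.44-fold (log2 difference 1.78, SE 0.19, adjusted p = 0.00056, limma), the largest difference of the 10 genes, with within-slide differences of 1.36, 2.35 and 1.71.

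Psmb9, which takes the place of Psmb6, read -1.98, -1.96, -2.16 and -1.89 in the eGFP samples and -1.83, -2.17, -2.04 and -2.29 in the Hoxa9-eGFP samples. The groups overlapped, and the difference was -0.08 (SE 0.15, 95% interval -0.43 to 0.26, adjusted p = 0.738, limma). A rise of the size of that of Psmb8 lies outside this interval. Its other probe, annotated in the files to a different transcript, was dimmer and differed by -0.97 (SE 0.83, adjusted p = 0.495 over all probes), with Hoxa9-eGFP replicate 2 not well above background.

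Psmb10, which takes the place of Psmb7, read 4.58, 4.43, 3.97 and 4.20 in the eGFP samples and 4.61, 4.58, 4.71 and 4.37 in the Hoxa9-eGFP samples. The groups overlapped, and the difference was 0.27 (SE 0.17, 95% interval -0.12 to 0.67, adjusted p = 0.350, limma). All 4 same-numbered pairs were higher, by 0.03 to 0.74.

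The probes of Psmb8 and Psmb9, the induced subunits furthest apart in their differences, are printed here with that of Tap1, whose gene lies beside Psmb9. They lie at chr17:34337771-34337830 (plus strand), chr17:34319174-34319233 (minus strand) and chr17:34330854-34330913 (plus strand) in mm9. The Psmb8 and Tap1 probes share no run of 14 bases with a probe of another gene name, and the Psmb9 probe shares such a run with 1.
Psmb8 probe: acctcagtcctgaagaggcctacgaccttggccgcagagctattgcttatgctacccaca
Psmb9 probe: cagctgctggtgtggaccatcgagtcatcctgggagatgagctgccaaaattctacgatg
Tap1 probe: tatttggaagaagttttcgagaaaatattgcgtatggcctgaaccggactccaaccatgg

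Ratios of 2 genes within an array do not depend on a scale factor per array, and 8 were compared after the values had been seen. The smallest p that 4 against 4 samples allow is 0.0286, and 5 of the 8 ratios reached it, with an adjusted p of 0.0457 over the 8 (exact two-sided permutation test). Permuted within the same-numbered pairs, the smallest p possible is 0.125, so no ratio could pass a paired test. The adjustment over the 8 does not account for their choice after the values had been seen. These p-values therefore only describe how far the groups were separate. The ratio of Psmb8 to Psmb9 was higher by 1.87 on the log2 scale, and that of Psmb8 to Psmb5 also by 1.87. The ratio of Psmb10 to Psmb7 was higher by 0.61, though neither gene passed the test by itself. Psmb7 read 2.69 in Hoxa9-eGFP replicate 4 and 3.48 to 3.71 in the other Hoxa9-eGFP samples. The ratio to B2m was higher by 1.02 for H2-K1 and by 1.14 for H2-D1. The ratio of Psmb9 to Psmb6 differed by 0.19 (p = 0.286, adjusted 0.327), and that of Tap1 to Psmb9 by 0.95 (p = 0.0571, adjusted 0.0762, exact permutation test).

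The regulator Nlrc5 read -3.35, -2.99, -3.77 and -3.81 in the eGFP samples and -2.54, -3.47, -2.34 and -1.76 in the Hoxa9-eGFP samples. Hoxa9-eGFP replicate 2 lay inside the eGFP range, and the other 3 lay above it. The difference was 0.95 (SE 0.36, 95% interval 0.13 to 1.78, adjusted p = 0.126, limma). Of the same-numbered pairs 3 were higher and pair 2 was lower, at -0.48, and with the replicate block the adjusted p was 0.205. It passed the test in 3 of 19 alternative settings: with the slide as a block (1.19, adjusted p = 0.0459), with array weights (0.98, adjusted p = 0.0428) and without Hoxa9-eGFP replicate 2 (1.27, adjusted p = 0.0204). Without Hoxa9-eGFP replicate 4 it was 0.70 and with normexp 0.54, neither past the test. A second Nlrc5 probe was well above background on 3 arrays of each group and differed by 0.67 (SE 0.69, adjusted p = 0.566 over all probes).

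**Figure D3:**
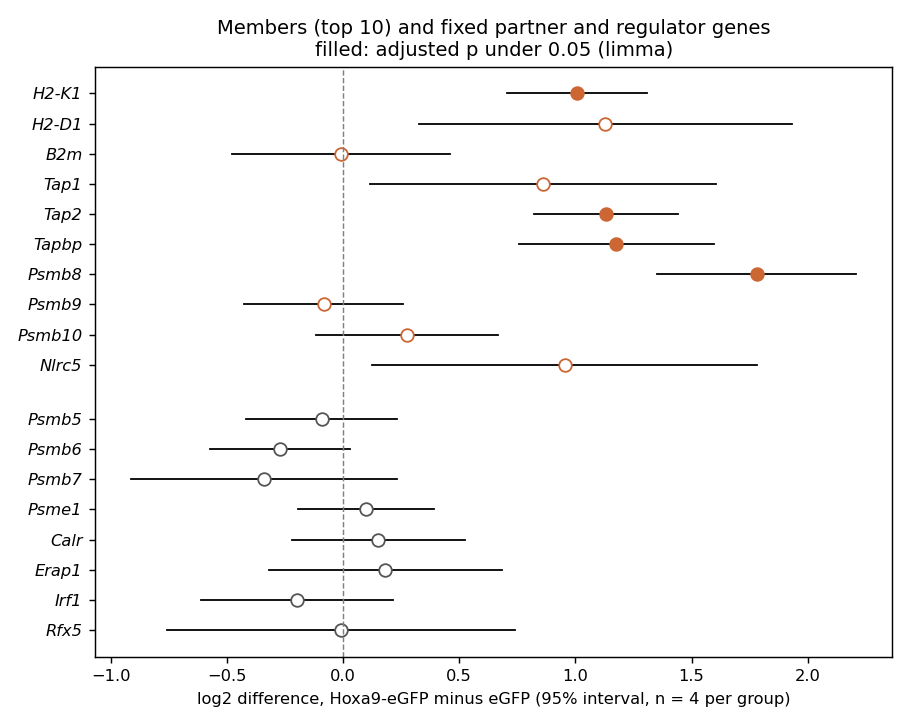
Log2 difference, Hoxa9-eGFP minus eGFP (x axis), with its 95% interval for the 10 class I genes and, below the gap, for 8 partner and regulator genes; filled circles have an adjusted p under 0.05 (limma, n = 4 per group). The intervals of H2-K1, Tap2, Tapbp and Psmb8 lie furthest from 0, and those of the constitutive subunits Psmb5, Psmb6 and Psmb7 include 0.

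Over the 8 arrays the genes differed in how closely each followed the other 9. The Pearson correlation of a gene with the mean of the others was 0.96 for H2-D1, 0.92 for Tapbp, 0.90 for Tap1 and 0.89 for Psmb8, but 0.37 for B2m and -0.11 for Psmb9. These values describe 8 arrays that include the group difference and share slides. After the group means were taken out, B2m correlated with the others at 0.91 and H2-D1 at 0.96, while Tap2 gave -0.31. The genes were scaled to equal SD for the first correlations but not for these, so genes of wide spread weigh more here. Among all genes with a RefSeq mRNA accession, Uap1l1 (0.993), Zfp287 (0.992), Htatip2 (0.990), Rnaset2a (0.987) and Eogt (0.987) had the pattern most like the mean of the 10 over the 8 arrays.

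Other heavy chain genes were more often higher than lower. Of 21 tested, 11 rose and 1 fell, with a median difference of 0.72, against 7.83% of all genes called higher and 7.43% lower. Fcgrt, the heavy chain of the neonatal Fc receptor, rose by 1.25 (SE 0.21, adjusted p = 0.0055, limma). The non-classical H2-T23, the mouse counterpart of HLA-E, also rose by 1.25 (SE 0.25, adjusted p = 0.0109), and Hfe, whose product regulates iron uptake, rose 2.01-fold (log2 difference 0.65 with normexp background correction). Cd1d1, which presents lipids to NKT cells, was the 1 that fell, by 0.98, and is named after its value was seen. All these products pair with beta-2-microglobulin, and H2-T23 is subject to the shared 29 bases described above. Runs that the other heavy chain probes share among themselves were not searched, so the 11 calls are not known to be independent.

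Of 18 loading and trimming genes tested, 1 rose and none fell, with a list median of -0.20, a share no higher than the 7.83% of all genes. The 1 was Tapbpl, which encodes the tapasin-related peptide editor TAPBPR and rose by 0.71 (adjusted p = 0.0151, limma). Its call was lost with the array median in place of the 75th percentile (adjusted p = 0.0923) and without Hoxa9-eGFP replicate 1 (adjusted p = 0.0502). The chaperone gene Calr differed by 0.15 and the peptide-trimming aminopeptidase gene Erap1 by 0.18, neither past the test. Of 19 constitutive subunits, core subunits and assembly factors of the proteasome, none rose and 2 fell, with a median of -0.27, against 7.43% of all genes called lower. These 2 were Psma5, an alpha subunit of the core, which fell by 0.59, and the assembly chaperone Psmg4, which fell by 0.48. Neither call held with the array median in place of the 75th percentile (adjusted p = 0.0562 for Psma5 and 0.137 for Psmg4). That of Psma5 was also lost with quantile normalization (adjusted p = 0.0554), and that of Psmg4 with normexp (0.0532), without the filter, with either block and with any 1 array left out. Psmb5 differed by -0.09, Psmb6 by -0.27 and Psmb7 by -0.34, none past the test. None of 4 genes of proteasome activators and regulators passed it, and Psme1, a subunit of the activator PA28, differed by 0.10.

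**Figure D4:**
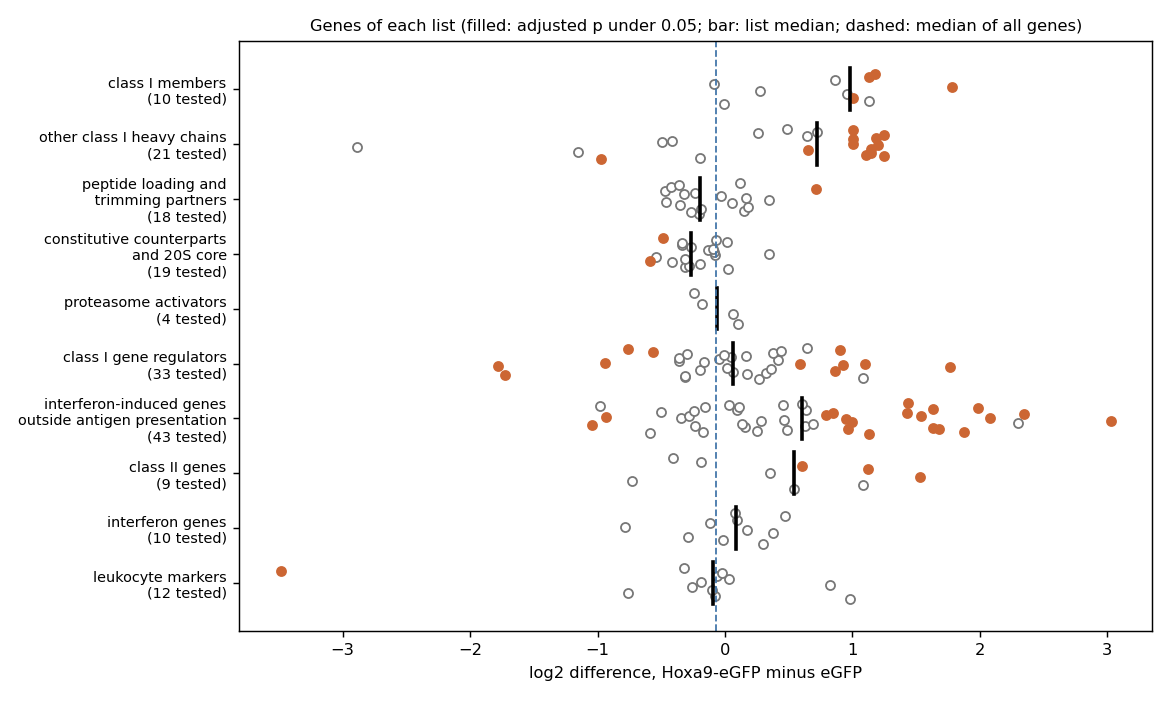
Log2 difference, Hoxa9-eGFP minus eGFP (x axis), for every tested gene of 10 gene lists, with filled points for an adjusted p under 0.05 (limma), bars for list medians and a dashed line at the median of all genes, -0.07. The class I genes, the other heavy chains and the interferon-induced genes have medians of 0.98, 0.72 and 0.60.

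Genes that regulate the class I pathway moved in both directions. Of 33 tested, 6 rose and 5 fell, with a median of 0.06, against 7.83% of all genes called higher and 7.43% lower. Jak2, a kinase of the interferon gamma receptor, rose by 1.10 (SE 0.16, adjusted p = 0.00262, limma). Irf8, an interferon regulatory factor, fell by 1.79 (SE 0.13, adjusted p = 0.000116; by 0.81 with normexp), and Ezh2, the methyltransferase of the Polycomb repressive complex PRC2, fell by 1.73 (SE 0.23, adjusted p = 0.00154). The other called genes are named after their values were seen. Irf7 rose by 1.76 (well above background on 2 eGFP arrays), Irf9 by 0.93, Stat2 by 0.91, Ifngr2 by 0.87 and Jak1 by 0.59. Nfkb1 fell by 0.94, Suz12 by 0.76 and Socs1 by 0.57. Irf1 differed by -0.20 and Rfx5, a DNA-binding partner of Nlrc5, by -0.01, neither past the test. The class II transactivator gene Ciita differed by 1.08 (SE 0.88, adjusted p = 0.466), and its eGFP replicate 1 was the 1 array not well above background.

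Of 43 interferon-induced genes that have no part in antigen presentation, 17 rose and 2 fell, with a median of 0.60. Over all genes 7.83% were called higher and 7.43% lower. Ifih1, which encodes the RNA sensor MDA5, rose 8.16-fold (log2 difference 3.03, SE 0.15, adjusted p = 4.05e-05, limma). Ddx58, which encodes the RNA sensor RIG-I, rose by 1.68, and Dtx3l, a ubiquitin ligase, by 1.63. The 2 that fell, named after their values were seen, were Gbp4, by 1.05, and Ifitm3, by 0.94. Of 10 interferon genes tested, each well above background on every array, none passed the test. How specific their probes are was not tested. Ifng and Ifne were not well above background on any array, and Ifnb1 was so on 1 array of each group. Ifna4 was well above background on 0 eGFP and 3 Hoxa9-eGFP arrays, and Ifnk on 0 and 1. None of these genes passed the filter, so their differences were not tested.

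Class II genes, which mark professional antigen-presenting cells, were dim, with list means of -3.75 to -3.04 in the eGFP samples and -3.50 to -2.55 in the Hoxa9-eGFP samples. Of 9 tested, 3 rose and none fell: H2-Ab1 rose by 1.53, H2-DMb1 by 1.12 and H2-Eb1 by 0.60. The shares over all genes, 7.83% called higher and 7.43% lower, apply to this and the marker lists below. With normexp H2-DMb1 rose by 0.55 and H2-Eb1 differed by 0.31 (adjusted p = 0.199), and with the array median the adjusted p of H2-Eb1 was 0.0666. Of 19 leukocyte markers, 12 were tested, none rose and 1 fell, Laptm5, by 3.49. Their mean level was -0.77 to -0.24 in the eGFP samples and -1.01 to -0.50 in the Hoxa9-eGFP samples. The pan-leukocyte marker Ptprc was well above background on 0 eGFP and 2 Hoxa9-eGFP arrays, and the myeloid markers Lyz2 and Tyrobp on 0 and 1. Other markers of the list were well above background on every array. Among them were Itgam (mean 5.04 in the eGFP and 5.02 in the Hoxa9-eGFP samples) and Csf1r (2.62 and 2.64). Apart from Laptm5, these markers are named after their values were seen. Of 11 fibroblast markers 2 rose and 1 fell, of 9 endothelial markers 2 rose and 1 fell, and of 11 smooth muscle and pericyte markers 1 rose and 2 fell. Single markers among them moved far. Ly6a rose by 4.55, Fbn1 rose by 1.03 and Col1a2 fell by 2.49 among the fibroblast markers. Cnn1 rose by 2.57, Notch3 fell by 2.14 and Acta2 fell by 1.32 (not past the test with quantile normalization, adjusted p = 0.0579, or without eGFP replicate 1, 3 or 4 or Hoxa9-eGFP replicate 1) among the smooth muscle and pericyte markers. The endothelial Esam rose by 1.57 and was well above background on 2 eGFP arrays. The mean level of the fibroblast markers was 0.08 to 1.13 in the eGFP samples and -0.06 to 1.55 in the Hoxa9-eGFP samples. That of the endothelial markers was -1.81 to -1.49 and -2.08 to -1.49, and that of the smooth muscle and pericyte markers 0.85 to 1.61 and 0.81 to 1.60. Among satellite cell markers 5 of 11 fell, and Vcam1 fell by 2.59 and Itga7 fell by 0.76 (adjusted p = 0.0573 with the slide block and 0.0511 without Hoxa9-eGFP replicate 3), while none of 10 muscle differentiation markers passed the test. The part of these changes in the class I values was not tested.

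Class I genes are known to share regulatory elements. The promoters of both heavy chain genes, of Psmb8 and of the Tap1 and Psmb9 pair are shown, to set genes that rose beside related or neighbouring genes that did not pass the test. RefSeq windows of 300 bases (GRCm38.p6, 250 before and 50 after a start site) were at hand for 8 of the 10 genes, and Tap2 and Nlrc5 are named only. The letters searched, on both strands, were AAANNGAAA for the core of an interferon-stimulated response element, TTCNNNGAA for a gamma-activated site, ATTGG for a Y box, GGGATTCCC for a kappaB site, TGACAG for a Meis site and TGATTNAT for a Pbx-Hox site. They occur in 10.6%, 8.3%, 37.4%, 0.353%, 19.2% and 3.22% of 32851 promoter windows. No Meis or Pbx-Hox letters were found in the windows of the 8 genes. The H2-K1 and H2-D1 windows each held the kappaB letters and Y box letters, the Psmb8 window held the gamma-activated site letters, the B2m window the response element core and a Y box, and the Tapbp window 2 Y boxes. The Psmb10 window held none of them. Only exact letters were counted, so a window without them can still hold a variant of an element. For example, both heavy chain stretches hold tttcacttc after the kappaB letters. It differs from the response element core, read on the other strand, in its last base only. The 4 stretches below lie at chr17:34000348-34000597 (H2-K1, minus strand), chr17:35262844-35263093 (H2-D1, plus strand), chr17:34197945-34198194 (Psmb8, plus strand) and chr17:34187331-34187555 (between the start sites of Tap1 and Psmb9, written on the Tap1 strand). Capitals mark the letters found.
H2-K1: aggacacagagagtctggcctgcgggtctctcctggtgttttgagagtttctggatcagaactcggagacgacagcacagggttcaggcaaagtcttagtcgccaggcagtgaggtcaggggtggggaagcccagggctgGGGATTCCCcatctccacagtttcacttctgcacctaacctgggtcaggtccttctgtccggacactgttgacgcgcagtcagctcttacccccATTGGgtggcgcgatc
H2-D1: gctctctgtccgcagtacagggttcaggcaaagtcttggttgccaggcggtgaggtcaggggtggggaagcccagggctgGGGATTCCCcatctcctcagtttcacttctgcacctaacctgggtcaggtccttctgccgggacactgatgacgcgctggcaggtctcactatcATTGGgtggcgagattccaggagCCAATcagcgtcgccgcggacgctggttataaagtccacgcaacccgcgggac
Psmb8: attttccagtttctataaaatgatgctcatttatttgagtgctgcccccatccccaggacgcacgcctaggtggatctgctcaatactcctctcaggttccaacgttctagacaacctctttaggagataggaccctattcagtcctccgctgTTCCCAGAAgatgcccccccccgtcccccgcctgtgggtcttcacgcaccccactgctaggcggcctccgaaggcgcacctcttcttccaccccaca
Tap1 and Psmb9: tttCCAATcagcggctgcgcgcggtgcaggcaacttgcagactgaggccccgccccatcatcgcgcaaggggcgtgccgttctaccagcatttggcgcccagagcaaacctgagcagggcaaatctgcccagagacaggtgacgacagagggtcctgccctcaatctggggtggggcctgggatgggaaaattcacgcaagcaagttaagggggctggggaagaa

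The H2-K1 and H2-D1 stretches are identical at 166 of 190 bases (87.4%) when H2-D1 is set 60 bases along H2-K1 without gaps, and the kappaB letters and the first Y box coincide in this alignment. Tap1 and Psmb9 are read in opposite directions from start sites 225 bases of sequence apart and share the Y box letters between them. Neither gene passed the test, with differences of 0.86 for Tap1 and -0.08 for Psmb9. A match of letters is a description and was not tested as a site.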

How the data were processed

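The deposited intensity values are each array's scanner output; per the file headers, Agilent Feature Extraction 10.7.3.1 made them and subtracted the background. The probe positions are in mm9, per the file headers. The authors' deposited table of processed values, read as a score because 86.1% to 87.3% of its cells lack the decimal point, served as an alternative. Its column medians, with the point put back, ran from -3.38 to -2.96, and it matched the log2 scanner signal plus a constant per array. The number of arrays limits the precision.

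The processed signal was taken to log2, less each array's 75th percentile, leaving out control spots and marked spots (180 of 55681 probes) and averaging repeated spots. Probes well above background on at least 4 arrays were kept, and a gene is its kept probe of highest mean. The test was limma's (version 3.58.1, R 4.3.3; lmFit, eBayes, Benjamini-Hochberg). On simulated data with 200 of 27033 genes changed, 34% of changes of log2 size 1 and 67% of size 2 were recovered, with 7 false calls. In the real data 2118 genes were called higher and 2008 lower, far more than were simulated, so these shares may not hold there.

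The class I genes, gene lists and motifs were chosen with earlier results of these data known. Besides the 10 genes, the text names Hoxa9, fixed partners and regulators, up to 3 called genes of lowest adjusted p per list, and the 5 genes of most similar pattern; others are said to be chosen after their values were seen. The values of 1 fixed regulator are not reported here, and the counts of its list hold it. Of the listed genes without a value, Psme2 was not analysed here. Slides were a block in an alternative. Same-numbered samples deviated together from their group means (correlations 0.143, 0.228, 0.130 and 0.185). The experiment numbers in the titles were therefore taken as pairs in another alternative, the replicate block. The main test had no block and did not use this pairing. Of the unlike-numbered pairs, eGFP 4 with Hoxa9-eGFP 3 (0.188) and eGFP 3 with Hoxa9-eGFP 4 (0.137) also passed 0.1, so the check does not separate numbers 3 and 4. Promoter sequences are from RefSeq (GRCm38.p6), whose build differs from that of the probes.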

Additional observations from a re-analysis of the deposited data

Results flagged for a closer look

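In 5 of 108 groups of 4 samples, over 54 named genes, 1 sample lay apart from the other 3, by a gap over Dixon's 95% critical value; chance marks about 1 in 20 groups. H2-K1 was lowest in eGFP replicate 4, at 2.68 against 2.96 for the nearest sample (gap 0.863 of the range), and all 4 eGFP samples stayed below the Hoxa9-eGFP samples. Irf1 was highest in eGFP replicate 1, at 2.39 against 2.11 (0.899). Ciita was lowest in eGFP replicate 1, at -8.34 against -4.58 (0.894), where it was not well above background. Jak2 was lowest in Hoxa9-eGFP replicate 3, at 2.32 against 2.84 (0.902), still above every eGFP sample. Cnn1, a smooth muscle gene, was highest in Hoxa9-eGFP replicate 3, at 1.17 against -0.54 (0.95).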

How the results depend on the processing

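Under the 19 alternatives, 4 to 6 of the 10 genes were called higher and 0 lower. H2-K1, Tap2, Tapbp and Psmb8 were called in 19 of 19, with lowest and highest log2 differences of 0.93 and 1.09, 1.07 and 1.2, 1.05 and 1.26, and 1.43 and 1.87. H2-D1 was called in 6 of 19 (0.86 to 1.38), Nlrc5 in 3 (0.54 to 1.27) and Tap1 in 2 (0.45 to 1.11), while B2m, Psmb9 and Psmb10 were called in 0. With the replicate block 6 of the 10 genes were called higher, against 8.51% of all genes, since H2-D1 (adjusted p = 0.0436) and Tap1 (adjusted p = 0.0275) passed the test. The count of genes lower in Hoxa9-eGFP, 2008, ran from 1293 to 1889 when 1 array was left out, lowest without eGFP replicate 2. The sign turned for 3 genes whose difference was near 0. B2m gave 0.10 with quantile normalization, 0.035 with normexp, 0.0869 with the slide block and -0.13 to 0.15 with 1 array left out. Psmb5 gave 0.13 and 0.0366 with quantile normalization and normexp, and Rfx5 gave 0.0243 with normexp and -0.21 to 0.19 with 1 array left out. The cause of these changes was not tested. The other recomputed values of single genes include the differences within slides. Of these, 1018 kept their side of the threshold or moved by less than the spread, 61 no longer passed it, 15 newly passed it and 79 moved by more than the spread. Signals of Tap1 and Nlrc5 and of the second probes of Psmb9 and Nlrc5 were dim, which limits their precision.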
